A study of Mus musculus with 6 samples.

Results

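Calmodulin is the small calcium sensor found in every cell type of the mouse, and more than one gene encodes it. Calm2 and Calm3, the calmodulin genes described here, were selected by symbol from the 18001 genes of the expression table, after Calm3 had been seen to lie far below control in the same comparison. They are 2 of the 18001 genes, and they are not all of the genes that encode calmodulin, so no value below stands for the calmodulin mRNA of the cell as a whole. The cells were NIH/3T3, a mouse fibroblast line that divides without limit. They received pooled siRNAs directed at Aldoa, the gene of the glycolytic enzyme aldolase A (siAldoa), or non-targeting siRNAs (siCtrl), and poly(A) RNA was sequenced after 48 h. Each group held 3 libraries, labelled replicates 1 to 3. All 6 libraries came from the same line, and the only agents named in the labels were the siRNAs. The study calls the 3 replicates biological, and its methods add spike-in RNA at lysis for replicate 1 and after extraction for replicates 2 and 3.

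In calmodulin, EF hands, short loops between helices, each hold a calcium ion. When calcium in the cytosol rises, the filled protein wraps around its targets, among them the calmodulin-dependent kinases, the phosphatase calcineurin, calcium pumps and adenylyl cyclases. Separate genes on separate chromosomes with their own promoters and untranslated regions supply one and the same protein.

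In the mouse genome build GRCm38 (mm10), Calm3 (ENSMUSG00000019370) occupies bases 16915379 to 16924114 of chromosome 7, and Calm2 (ENSMUSG00000036438) bases 87433412 to 87446935 of chromosome 17, both on the minus strand. In the GENCODE annotation, the longest coding transcript of each has 6 exons and encodes 149 residues, and 0 residues differ between them. The mRNAs differ. Of the 447 coding bases, 78 differed (82.6% identity), which touched 76 of the 149 codons, and 74 of these differences lay at the third codon position, 4 at the first and 0 at the second. The longest run of identical coding bases was 17. The transcript of Calm3 was 2290 bases long, with 1569 bases in the 3′ untranslated region, and that of Calm2 was 1205 bases long, with 615 bases there. The codons of the first calcium-binding loop, codons 21 to 32 of the reference sequence, are shown because they let a reader see how the genes write the same 12 residues in different bases. They lie at chr17:87435873-87435908 for Calm2 and at chr7:16917667-16917702 for Calm3, both on the minus strand of GRCm38. The capitals mark the 7 of 36 bases at which the genes differ.
Calm2: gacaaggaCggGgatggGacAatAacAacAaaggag
Calm3: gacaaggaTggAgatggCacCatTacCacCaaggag

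Expression was deposited as CPM, read counts per gene divided by an effective library size and scaled by a fixed factor. All CPM values were whole multiples of the value of 1 read, within 0.01 read, and the recovered totals were 3692341 to 3771129 reads per library, so that 3 reads corresponded to 0.79 to 0.82 CPM. Replicates 1 and 2 of each group were closer to each other (chi-square per degree of freedom 1.12 in siCtrl and 1.11 in siAldoa) than to replicate 3 (2.07 to 3.24). The targeted gene followed the labels. Aldoa stood at 522, 536 and 545 CPM in siCtrl and at 62.9, 69.2 and 72.0 CPM in siAldoa, which is 12.7% of control (log2 fold change -2.96, limma adjusted p = 1.3e-21). Of the 10 fibroblast markers, 9 were in the table (all but Fap), summing to 13108 to 13645 CPM in the siCtrl libraries and to 10851 to 11523 CPM in the siAldoa libraries. By limma 4 were lower in siAldoa (Col1a1, Col1a2, Vim and S100a4, with Col1a2 at 73.5% of control) and 4 higher (Fn1, Thy1, Pdgfra and Pdgfrb, with Pdgfrb at 225% of control). In the whole table, 10.0% of genes were called lower and 10.4% higher at a limma adjusted p under 0.05. Of 14 markers of other cell types, 5 were in the table, summing to 11.8 to 15.1 CPM in the siCtrl libraries and to 5.50 to 8.02 CPM in the siAldoa libraries. Among these, only Cdh1 was called, at 43.6% of control from 7 to 27 reads per library (limma adjusted p = 0.0071). Its call was lost without siAldoa replicate 3 (limma adjusted p = 0.068). The part of either marker list in the calmodulin values was not tested.

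Calm3 was the gene of the pair that differed most between the groups. Its level was 274, 246 and 261 CPM in the siCtrl libraries, from 1001, 898 and 988 reads, and 98.0, 94.1 and 108 CPM in the siAldoa libraries, from 363, 352 and 411 reads. All siAldoa libraries lay below all siCtrl libraries, and the gap between the groups was wider than the range within either. On average siCtrl cells had 260 ± 14.3 CPM and siAldoa cells 99.9 ± 6.97 CPM (each SD, n = 3), or 38.4% of control. Its log2 fold change, computed on log2(CPM + 1), was -1.37 (SE 0.057), and it stayed between -1.43 and -1.32 when single libraries or same-numbered pairs were left out. Because Calm3 was chosen for this difference, it is given as a description and no p-value is attached. The coefficient of variation between replicates was 5.49% in siCtrl and 6.98% in siAldoa, against 3.22% and 5.16% from counting alone.

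Calm2 was lower by a smaller amount. Its level was 361, 362 and 385 CPM in siCtrl, from 1317, 1322 and 1456 reads, and 338, 301 and 312 CPM in siAldoa, from 1252, 1128 and 1191 reads. The groups did not overlap, but the highest siAldoa library stood close to the lowest siCtrl library. Calm2 averaged 369 ± 13.9 CPM with siCtrl and 317 ± 18.8 CPM with siAldoa (each SD, n = 3), or 85.9% of control. The log2 fold change was -0.22 (SE 0.045), with a range of -0.28 to -0.18 on leaving out libraries. Its coefficient of variation was 3.76% in siCtrl and 5.91% in siAldoa, against 2.71% and 2.90% from counting. By limma, 20.4% of all genes differed between the groups at an adjusted p under 0.05. Over the whole table, every siAldoa library lay below every siCtrl library in 17.1% of genes, and that pattern by itself, seen in both Calm2 and Calm3, is common in these libraries. These are bulk samples, in which fewer cells of a type and less RNA per cell cannot be told apart.

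**Figure D1:**
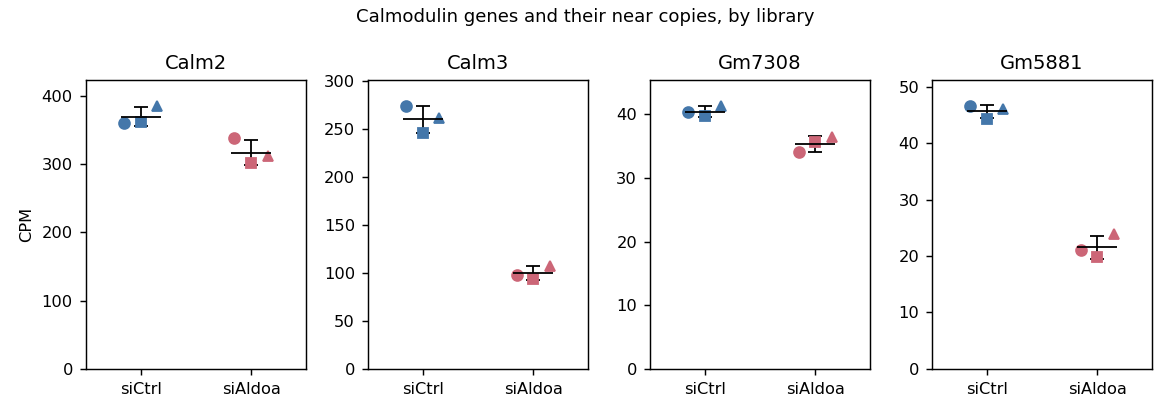
Level in CPM (vertical axes, each from 0) of Calm2, Calm3 and the pseudogenes Gm7308 and Gm5881 in the siCtrl (blue) and siAldoa (red) libraries; circles, squares and triangles are replicates 1, 2 and 3, and bars show the mean and SD of 3 libraries. Calm3 and Gm5881 show a wide gap between the groups, with siAldoa means at 38.4% and 47.2% of control, whereas Calm2 and Gm7308 are at 85.9% and 87.4%.

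Among all 18001 genes, Calm3 had the 10th lowest log2 fold change. Of the 2463 genes with a mean of at least 100 CPM, it was the 2nd lowest, after Aldoa (rank 1) and before Uhrf1 (-1.12), Hmgcs1 (-1.04), Lmnb1 (-0.97) and Tmem109 (-0.92). Calm2 ranked 497 among the same genes. The median log2 fold change of all genes was -0.0023.

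**Figure D2:**
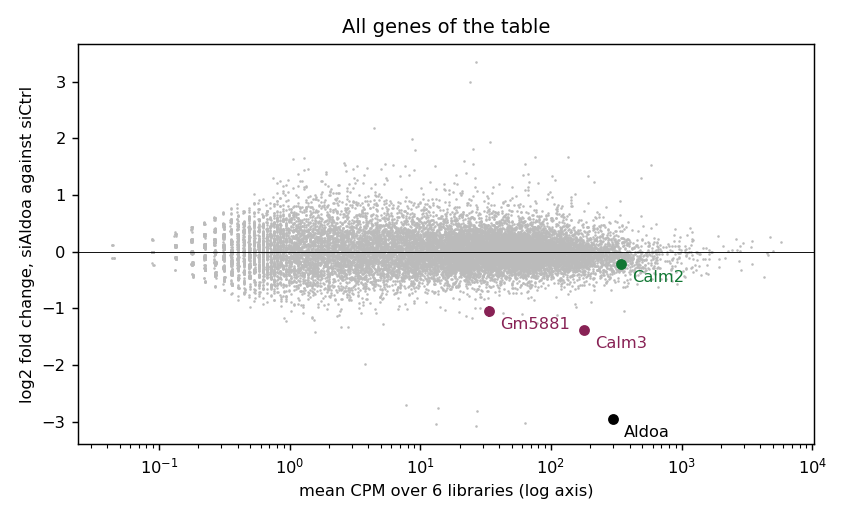
Log2 fold change of siAldoa against siCtrl on the log2(CPM + 1) scale (vertical axis) against the mean CPM of the 6 libraries (log horizontal axis), 1 grey point per gene of the table; bars on the named points show the SE, which is mostly smaller than the symbol. Calm3 at -1.37 lies apart from the grey points of similar level, while Calm2 at -0.22 lies within them.

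The levels of the genes can be compared with each other only per length. Over a union of exons of 1467 bases for Calm2 and 2423 bases for Calm3, the level of Calm2 was 252 ± 9.46 CPM per kb (SD, n = 3) in siCtrl and 216 ± 12.8 in siAldoa. That of Calm3 was 107 ± 5.90 CPM per kb in siCtrl and 41.2 ± 2.88 in siAldoa (SD, n = 3). Calm2 was thus the higher of the pair in both groups, and it lay above Calm3 in each of the 6 libraries.

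The ratio of Calm3 to Calm2 within a library does not depend on how that library was scaled. Per kb it was 0.460, 0.411 and 0.411 in siCtrl and 0.176, 0.189 and 0.209 in siAldoa, without overlap. The mean ratio was 0.427 ± 0.0284 (SD, n = 3) in siCtrl and 0.191 ± 0.0168 (SD, n = 3) in siAldoa, and the log2 ratio of the values with the pseudocount differed by -1.15. The ratio was highest in replicate 1 of siCtrl and in replicate 3 of siAldoa.

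The sum of Calm2 and Calm3 was lower as well. Per kb it was 359, 348 and 370 CPM in the siCtrl libraries and 271, 244 and 257 CPM in the siAldoa libraries, and the groups did not overlap. The mean sum was 359 ± 11.3 (SD, n = 3) in siCtrl and 257 ± 13.2 (SD, n = 3) in siAldoa, which is 71.7% of control. In plain CPM, where the longer Calm3 transcript weighs more, the sum was at 66.2% of control. Calm3 made up 31.5%, 29.1% and 29.1% of the sum per kb in siCtrl and 14.9%, 15.9% and 17.3% in siAldoa, with a mean of 29.9 ± 1.38% in siCtrl (SD, n = 3) and a difference of the means of -13.9 percentage points. Of the difference in the sum per kb, 65.1% came from Calm3 and the rest from Calm2, and Calm2 was not higher where Calm3 was lower.

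**Figure D3:**
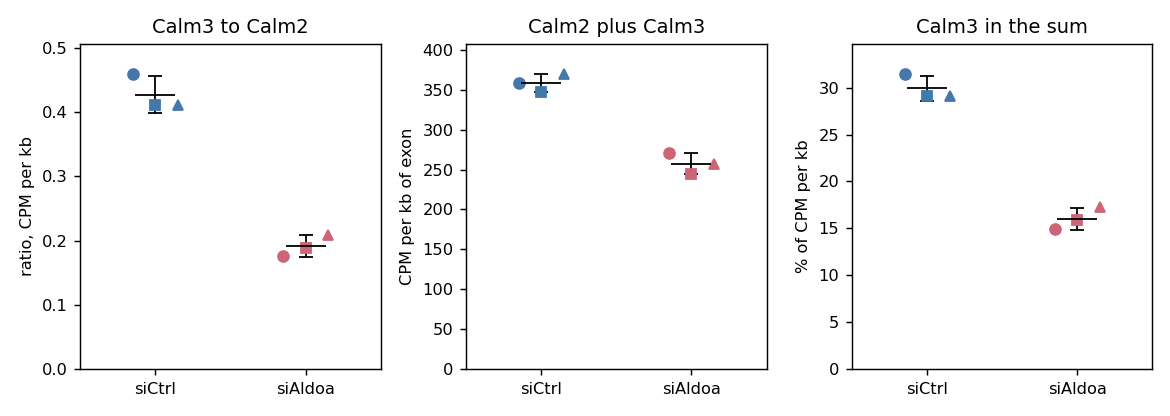
Ratio of Calm3 to Calm2 (left), sum of Calm2 and Calm3 (middle, CPM per kb of exon) and share of Calm3 in that sum (right, percent), each axis from 0; symbols are replicates 1 (circle), 2 (square) and 3 (triangle), and bars show the mean and SD of 3 libraries. All of these quantities are lower in each siAldoa library than in any siCtrl library, with mean ratios of 0.427 and 0.191.

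Calmodulin transcripts have near copies elsewhere in the genome, processed pseudogenes that could share reads with their parents. Gm5881 (ENSMUSG00000107747, chromosome 6, 96033003 to 96033369, minus strand) was 96.2% identical to the Calm3 transcript over 367 bases. It stood at 46.6, 44.3 and 46.0 CPM in siCtrl and at 21.0, 19.8 and 23.8 CPM in siAldoa, which is 47.2% of control (log2 fold change -1.05, SE 0.10). Its groups did not overlap, and its level relative to Calm3 was 17.0%, 18.0% and 17.6% in siCtrl and 21.5%, 21.0% and 22.1% in siAldoa. Per kb Gm5881 reached 124 CPM in siCtrl and 58.7 CPM in siAldoa, above Calm3 itself in both groups. Gm7308 (ENSMUSG00000081113, chromosome 6, 127282063 to 127282509, minus strand) was 96.9% identical to Calm2 over 447 bases and stood at 40.3, 39.7 and 41.3 CPM in siCtrl and at 34.0, 35.5 and 36.4 CPM in siAldoa. This is 87.4% of control (log2 fold change -0.19), and its level relative to Calm2 was 10.9% in siCtrl and 11.2% in siAldoa. Gm7308 differed between the groups by about as much as Calm2, and Gm5881 by less than Calm3 though in the same direction. How the counting treated reads that match both places is not given in the sources used here, so the values of Calm3 with Gm5881, and of Calm2 with Gm7308, are uncertain to that extent. A further copy, Gm14480 on the X chromosome (90.8% identical to Calm2), had 0 to 4 reads per library. With Gm5881, Gm7308 and Gm14480 added, each divided by the exon length of its parent gene, the sum per kb was at 71.6% of control.

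A pool of siRNAs can lower transcripts other than its target, either where an siRNA pairs with them along its length or where only its seed does. The sources used here name the siRNAs as commercial pools, without their sequences, and a match of them to Calm3 or Calm2 was not tested. With a single pool against Aldoa, an effect of the pool on Calm3 and an effect that runs through Aldoa cannot be told apart. What could be measured was the sequence that Aldoa itself shares with the calmodulin transcripts. The longest exact run shared by Calm3 and Aldoa on the same strand was 11 bases, and 83.6% of the 17931 genes compared had a run at least as long. On the opposite strand Calm3 matched Aldoa over 13 bases of its coding sequence, shown because it was the longest run of any found here:
Calm3 run: CCATGATGGCCAG
A run at least as long was present in 21.3% of the genes, and the median was 12 bases on either strand. Calm2 shared 10 bases with Aldoa on each strand, as did 96.7% of genes on the same strand and 96.0% on the opposite strand, counting those with longer runs. In windows of 19 bases, about the length of the paired part of an siRNA, the fewest mismatches between Calm3 and Aldoa were 4 on the same strand and 3 on the opposite strand. As few were found in 97.7% and 47.8% of the 11601 coding genes with a mean of at least 1 CPM. Calm2 had 4 on each strand, and 97.7% and 96.8% of genes had as few. On the same strand, runs and windows as close to Aldoa as those of Calm3 and Calm2 were present in most genes. Seed matches of the siRNAs themselves are not covered by this comparison.

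The position of the genes was not used in selecting them, and genes among the 3 nearest of the table on each side were examined with limma over all genes. Of the 18001 genes, 10.0% were called lower and 10.4% higher at an adjusted p under 0.05. Of the 6 neighbours of Calm3, 0 were called lower and 1 higher. Ptgir, the prostacyclin receptor gene, lies 4474 bases away and had only 2 to 7 reads per library (log2 fold change -0.063). Ppp5c, encoding a protein phosphatase, is the nearest well-expressed neighbour and stood at 72.9 ± 4.86 CPM with siCtrl and 68.9 ± 0.991 CPM with siAldoa (each SD, n = 3; log2 fold change -0.080, SE 0.070, limma adjusted p = 0.49). Gng8, a G protein gamma subunit gene, was the neighbour called higher, with 7.94, 7.39 and 7.67 CPM in siCtrl and 10.5, 11.2 and 13.9 CPM in siAldoa (log2 fold change 0.56, limma adjusted p = 0.030). This call was lost on leaving out any one library other than siAldoa replicate 1: the limma adjusted p was 0.061, 0.083 and 0.072 without siCtrl replicates 1, 2 and 3, and 0.068 and 0.14 without siAldoa replicates 2 and 3. DESeq2 gave an adjusted p of 0.12. The remaining neighbours, 2700080J24Rik, Psg16 and Gm7287, were not called.

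Beside Calm2, the table gene Msh6, a DNA mismatch repair gene that lies 528127 bases away, was called lower. Msh6 stood at 199, 175 and 184 CPM in siCtrl and at 136, 120 and 136 CPM in siAldoa (log2 fold change -0.50, limma adjusted p = 8.9e-07). Its log2 fold change was larger in size than that of Calm2, a comparison that was not tested. The nearer Ttc7, 51643 bases away on the other side, was not called (log2 fold change 0.098, limma adjusted p = 0.45), nor were 1700011E24Rik, 4833418N02Rik and Kcnk12, each with 18 or fewer reads in any library.

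**Figure D4:**
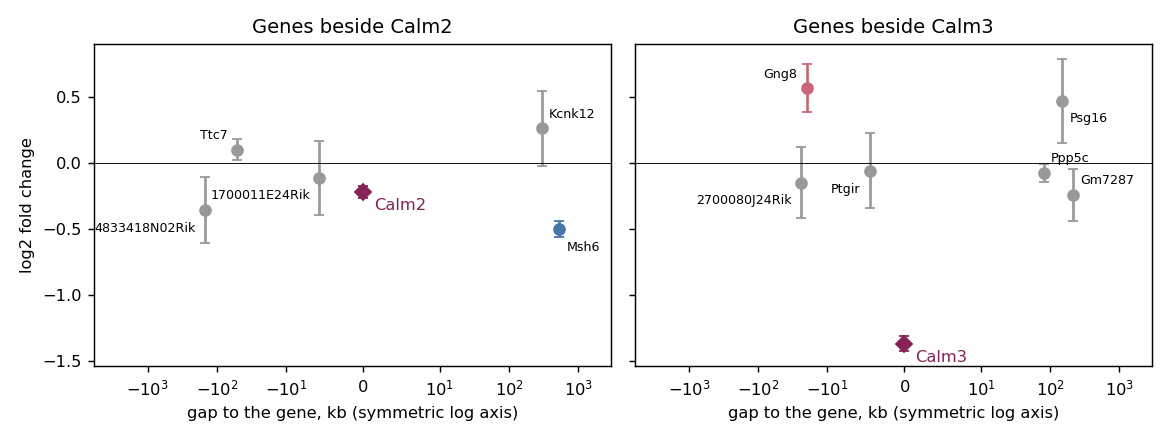
Log2 fold change of siAldoa against siCtrl (vertical axis, bars show the SE) for genes among the 3 nearest of the table on each side of Calm2 (left) and Calm3 (right), against the gap to the gene in kb on a symmetric log axis; blue and red points were called lower and higher by limma, grey points were not called, and diamonds are the calmodulin genes. Calm3 at -1.37 stands below all 6 of its neighbours, whereas Msh6 lies below Calm2.

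Profiles over the 6 libraries were compared for 10051 genes with a mean of at least 10 CPM, by the Euclidean distance of log2(CPM + 1) from the siCtrl mean. The gene nearest to Calm3 was Rgs2, a regulator of G protein signalling (distance 0.26), with 110, 115 and 110 CPM in siCtrl and 46.7, 43.0 and 48.2 CPM in siAldoa. It was followed by Ung, the uracil-DNA glycosylase gene (0.45), the noncoding 4930412F09Rik (0.46), Uhrf1, a reader of hemimethylated DNA (0.56), and the pseudogene Gm5881 (0.56). The log2 fold changes of these 5 genes were -1.26, -1.13, -1.17, -1.12 and -1.05, so each difference was smaller than that of Calm3. Calm2 had much closer neighbours in profile: 1500004A13Rik (0.050), Cd151 (0.052), Tpp2 (0.056), Smim10l1 (0.066) and Ddx1 (0.068). The distance depends on the size of a difference, and small differences are far more common in these libraries than one as large as that of Calm3. The distances of Calm2 and Calm3 are therefore not on a par. They describe likeness only and were not tested.

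Genes of calmodulin targets, of their relatives, of other EF-hand proteins and of calcium handling were then counted in 6 lists. Of 262 entries, 212 were in the table, and 31 (14.6%) were called lower and 30 (14.2%) higher, against 10.0% and 10.4% of all genes. All genes here include the 1834 with under 12 reads over all samples. The lists were not compared with genes of similar level. The higher shares in the lists therefore do not show an excess over genes expressed as highly. The counts in the lists depend on the fit. Without a mean-variance trend 5 (2.36%) were called lower and 14 (6.60%) higher, against 3.42% and 4.58% of all genes, so the share of lower genes was then below that of the table. With DESeq2 22 (10.4%) were called lower and 18 (8.49%) higher, against 6.21% and 5.92% of all genes. The rule for naming genes gave 24 genes in these lists, of which 18 kept an adjusted p under 0.05 without each single library, and only genes among those 18 are described below. Of these, 8 kept the call in every fit that gave an adjusted p, and 10 lost it in at least one other fit. Without the trend option the limma adjusted p was 0.089 for Ppia, 0.053 for Nfatc4, 0.11 for Atp2b1, 0.053 for Invs, 0.11 for Efcab14 and 0.059 for Calr. With a same-numbered pair of libraries left out, 8 lost the call: Dapk3, Akap5, Nfatc4, Atp2b1, Egfr, Itpkb, Invs and Efcab14.

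Calmodulin-dependent kinases carry the calcium signal on by phosphorylation. The list of these kinases and their relatives, not all of which need calmodulin, had calls in both directions. Of 28 in the table, 4 (14.3%) were lower and 3 (10.7%) higher, against 10.0% and 10.4% of all genes. Their median log2 fold change was 0.0037. Camk2b, a subunit of CaM kinase II, fell from 455, 452 and 441 CPM to 290, 290 and 291 CPM (log2 fold change -0.63, limma adjusted p = 2.3e-11). Dclk1, a kinase related to doublecortin, rose from 12.3, 9.57 and 13.8 CPM to 39.1, 31.8 and 27.8 CPM (log2 fold change 1.40, limma adjusted p = 2.4e-07). Dapk3, of the death-associated kinase family, rose with a log2 fold change of 0.51 (limma adjusted p = 0.00079).

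Calcineurin, the calmodulin-activated phosphatase, acts on NFAT transcription factors. Of 20 genes of this group in the table, 2 (10%) were called lower and 3 (15%) higher (median log2 fold change 0.026), against 10.0% and 10.4% of all genes. Ppia, encoding the cyclophilin through which cyclosporin inhibits calcineurin, fell from 376 ± 10.0 to 319 ± 9.75 CPM (SD, n = 3, log2 fold change -0.23, limma adjusted p = 0.00015). Nfatc4, an NFAT factor, rose from 5.49 ± 1.54 to 10.9 ± 1.52 CPM (SD, n = 3, log2 fold change 0.90, limma adjusted p = 0.0039). Akap5, an anchoring protein of calcineurin, rose as well, from 0.633 ± 0.164 to 2.93 ± 0.722 CPM (SD, n = 3, log2 fold change 1.26, limma adjusted p = 0.0011). It had few reads, 2 in the lowest and 14 in the highest of the 6 libraries.

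Other enzymes, pumps and channels regulated by calmodulin gave 3 (9.68%) lower and 4 (12.9%) higher genes of 31 (median 0.061). In the whole table these shares were 10.0% and 10.4%. Kcnn4, a calcium-activated potassium channel that carries calmodulin as a subunit, fell from 66.8, 71.7 and 72.2 CPM to 49.4, 41.4 and 46.1 CPM (log2 fold change -0.61, limma adjusted p = 3.9e-06). Atp2b1, a calcium pump of the plasma membrane, fell by 0.24 on the log2 scale (limma adjusted p = 0.0015). Itpkb, an inositol trisphosphate kinase, and Egfr, the epidermal growth factor receptor, rose with log2 fold changes of 0.66 and 0.93 (limma adjusted p = 0.00065 and 0.00023).

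Scaffold and cytoskeletal proteins that bind calmodulin gave 8 (18.6%) lower and 7 (16.3%) higher genes of 43 (median -0.045). In the whole table these shares were 10.0% and 10.4%, and the list was not compared with genes of similar level. Among the named genes were Myo1c and Myo1d, myosins of class I, which use calmodulin as a light chain. Because the rule names the furthest genes in each direction, their opposite signs do not describe the class. Myo1c fell from 541 ± 15.2 to 429 ± 6.87 CPM (SD, n = 3, log2 fold change -0.33, limma adjusted p = 3.8e-07), and Myo1d rose from 84.4 ± 2.75 to 139 ± 2.82 CPM (SD, n = 3, log2 fold change 0.71, limma adjusted p = 2.4e-09). Invs, encoding inversin, fell by 0.31 on the log2 scale (limma adjusted p = 0.0017).

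The list of other EF-hand proteins, the wider family to which calmodulin belongs, had more lower than higher genes. Of 40 in the table, 12 (30%) were called lower and 2 (5%) higher, against 10.0% and 10.4% of all genes. Their median log2 fold change was -0.14. S100a10, a partner of annexin A2, fell from 423, 424 and 446 CPM to 276, 276 and 284 CPM (log2 fold change -0.63, limma adjusted p = 4.8e-11). Efcab14 rose by a log2 fold change of 0.25 (limma adjusted p = 0.0029). The count of lower genes was 9 to 14 under other scalings, filters and tests, but 2 without the mean-variance trend. On leaving out single libraries or same-numbered pairs it was 4 to 11. Calml4, a calmodulin-like gene, was not called (log2 fold change 0.48, limma adjusted p = 0.18).

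Genes of calcium entry, release and storage had the opposite balance, with 2 (4%) lower and 11 (22%) higher of 50 (median 0.066). Over all genes, 10.0% were called lower and 10.4% higher. Orai2, a store-operated calcium channel subunit, rose from 44.6, 39.7 and 42.6 CPM to 89.3, 92.2 and 90.6 CPM (log2 fold change 1.08, limma adjusted p = 1.4e-10). Cacna1c, the pore subunit of an L-type calcium channel, rose from 31.2, 37.5 and 32.0 CPM to 60.2, 70.0 and 62.6 CPM (log2 fold change 0.92, limma adjusted p = 7.2e-08). Calr, the calcium-storing chaperone calreticulin, fell from 1306 ± 12.1 to 1089 ± 14.3 CPM (SD, n = 3, log2 fold change -0.26, limma adjusted p = 4.3e-07). The count of higher genes was 7 without siCtrl replicate 1, siCtrl replicate 3, siAldoa replicate 1 or siAldoa replicate 3, 6 with DESeq2 and 5 without the trend. It was 4 without any same-numbered pair. The balance of the EF-hand and calcium entry lists was not tested against that of all genes, nor against that of genes of similar level.

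**Figure D5:**
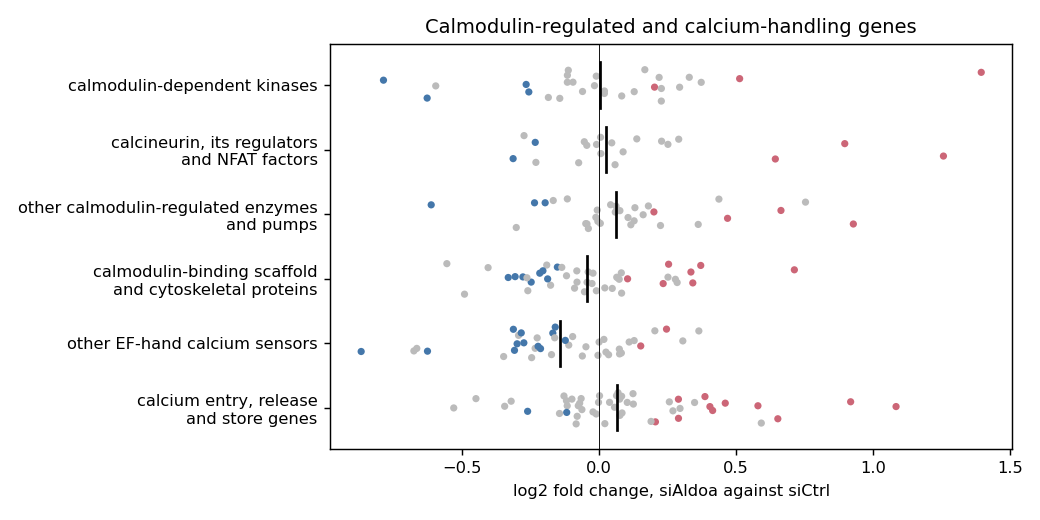
Log2 fold change of siAldoa against siCtrl (horizontal axis) for the genes of 6 lists, 1 point per gene with a random vertical offset; blue and red points were called lower and higher by limma at an adjusted p under 0.05, grey points were not called, and black bars mark each list's median. The other EF-hand genes have 12 blue and 2 red points of 40, and the calcium entry genes 2 blue and 11 red of 50.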

How the data were processed

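Poly(A) RNA of 3 siCtrl and 3 siAldoa libraries was analysed. The authors aligned reads to mm10 with Bowtie2 (version 2.2.7), subsampled them, counted them per gene and deposited CPM. The methods drop genes under 12 reads over all samples, yet the table held 1834 such genes. Strand use and multiply mapping reads are not given in the sources used here. The authors' edgeR comparison (fold changes and p-values) was not used. Reads recovered from CPM were whole for 100% of values. Their precision covers counting error only.

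Groups were compared with limma (3.58.1, R 4.3.3) on log2(CPM + 1) with the trend option for the mean-variance relation; this is a scale that understates changes of low genes, with Benjamini-Hochberg adjustment over 18001 genes. edgeR (4.0.16, quasi-likelihood test, 3786 genes called) and DESeq2 (1.42.0) were run on recovered reads. Of the identifiers, 17932 matched GENCODE M21 (GRCm38), from which sequences were read; near copies were found with blastn (2.17.0, at least 200 aligned bases).

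Members and lists were chosen with earlier results of these data known, so Calm2, Calm3, their near copies and the nearest profiles carry no p-value. Named were, per list, the 2 genes furthest down and the 2 furthest up by log2 fold change among those past an adjusted p of 0.05 without overlap of the groups, 3 neighbours on each side and the 5 nearest profiles. Sums and ratios cover Calm2 and Calm3 only. Not every planned result is reported here.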

Additional observations from a re-analysis of the deposited data

How the results depend on the processing

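Calm3 and Calm2 stayed lower in siAldoa under each scaling, pseudocount, filter, test and left-out library tried. When limma was run without its trend option, it called 616 genes of the whole table lower and 824 higher, against 1809 and 1867. In the 6 lists together it called 5 and 14, against 31 and 30. DESeq2 called 1117 lower and 1066 higher, and 18 higher in the 6 lists. On leaving out single libraries or same-numbered pairs, calls ranged from 520 to 1371 lower and 494 to 1464 higher. In the 6 lists they ranged from 10 to 25 lower and 9 to 25 higher. Fits on fewer samples have less power by construction, and the cause of the other differences was not tested. The log2 ratio of Calm3 to Calm2 changed by -1.25 to -1.04 (all libraries -1.15), the log2 sum by -0.52 to -0.44 and the share of Calm3 by -14.9 to -12.5 percentage points (all libraries -13.9). In plain CPM the last were -0.60 and -17.4, since length then weighs in. Over the named genes and neighbours, 672 alternative values kept their direction and side of the threshold, 99 lost the call and 9 changed sign. The sign changes were Canx, 0.048 with quantile normalization, and 3 neighbours with few reads on leaving out libraries: 1700011E24Rik (-0.47 to 0.19), Ptgir (-0.27 to 0.17) and 2700080J24Rik (-0.36 to 0.13). Deviations of same-numbered libraries correlated at 0.040, 0.040 and 0.207 over 8271 genes, and not every library correlated best with its own number. Whether replicates 1 and 2 were paired by number cannot be told from these values, because those replicates differed by little more than counting error. Replicate 3 of each group correlated negatively with replicates 1 and 2 of the other group (-0.154 to -0.079). Deviations from a group mean cancel within the group, so these negative values balance the 0.207 by construction and add no evidence. By the chi-square values above, replicate 3 stood apart in both groups. Its deviations correlated positively between the groups (0.207), and the source was not tested. A replicate block gave 3170 calls, 3151 shared with the 3676 without it, and the adjusted p of Gng8 was 0.051. The alternatives for EF-hand and calcium entry counts were chosen after seeing the data. Genes with few reads have wide counting error at this depth, and DESeq2 gave no adjusted p for some of them, Akap5 included.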
